A study of Mus musculus with 4 samples.

Results

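Immediate early genes were examined in mouse liver through 10 genes, Fos, Jun, Junb, Egr1, Btg2, Klf4, Atf3, Ier2, Ier3 and Zfp36. The members were all non-control probes whose gene name in the scanner files was one of these symbols, which gave 15 probes for 10 of the 28090 distinct gene names on the array. The rule uses gene names only, but the genes were listed with earlier results of these data known. The study, by its title, evaluated a Lactobacillus species linked to ostrich for its influence on weight, intestinal microbes and metabolism of mice, and its arrays set livers of the group labelled LB1 against livers of control mice. LB1 livers came from 2 female BALB/c mice and control livers from 2 female BALB/c mice, all killed 20 days after inoculation, with 1 array per mouse. The labels give no age, do not spell out LB1 and do not say what the control mice received. With 2 mice in each group, p-values measure only the spread between these 4 arrays.

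Immediate early genes are switched on within minutes of a stimulus, without new protein synthesis, by kinase cascades acting on transcription factors that already sit at their promoters. Many of their products are transcription factors themselves, and their transcripts are usually short-lived. In liver they are known for rapid induction after partial hepatectomy and by cytokines, growth factors and tissue handling.

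The LB1 arrays were dimmer than the control arrays at non-control spots. Before scaling, the 6 RNA spike-ins within range were instead brighter on the LB1 arrays, by a median of 0.45 on the log2 scale. The 75th percentile of the processed signal of non-control spots was 147 and 80.8 on the LB1 arrays, against 411 and 415 on the control arrays, and levels below are log2 values relative to this percentile of the same array. Each of 2 slides held an LB1 array and a control array of the same replicate number and had its own scan, so slide, scan and replicate number are the same block. The labelled tissue was checked on 11 hepatocyte markers, and a filter for probes well above background on all 4 arrays kept 11. This shows hepatocyte RNA on each array and not its share. Of 22957 tested probes, 7433 were called by limma at a Benjamini-Hochberg adjusted p under 0.05 (32.4%), 4406 higher in LB1 livers (19.2%) and 3027 lower (13.2%).

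Junb, Btg2, Klf4 and Ier2 rose in LB1 livers at their brightest probes, by 0.96 to 1.57 on the log2 scale relative to the array's 75th percentile, and each had the opposite sign, without passing the test, when arrays were scaled to the RNA spike-ins instead. Jun, Egr1, Atf3, Ier3 and Zfp36 had differences of 0.22 to 1.27 that did not pass, and Fos was too dim to be tested. Of the 9 genes tested, 4 were called higher and 0 lower by limma, beside 20.6% called higher, 10.4% called lower and 30.9% called in either direction among 13430 named genes. The brightest probe was taken over all 4 arrays, LB1 included, and for Btg2 this decided the call. On the control arrays its probe from base 2371, which was not called, was brighter than the called probe (mean -0.19 against -0.95). By probe, 5 of 14 were called higher and 0 lower, beside 19.2% and 13.2% of all tested probes. At an unadjusted p under 0.05, 9 member probes were higher and 0 lower, beside 28.9% and 19.8% of all tested probes. The median member probe lay at 1.02 and the median of all tested probes at 0.16. On 10 of the 14 probes the LB1 and control values did not overlap, while the groups did not overlap at 76.1% of all tested probes, a share close to that of the members. The smallest p that an exact permutation test of 2 arrays against 2 can give is 0.333, 2-sided, and each called probe had that value.

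**Figure D1:**
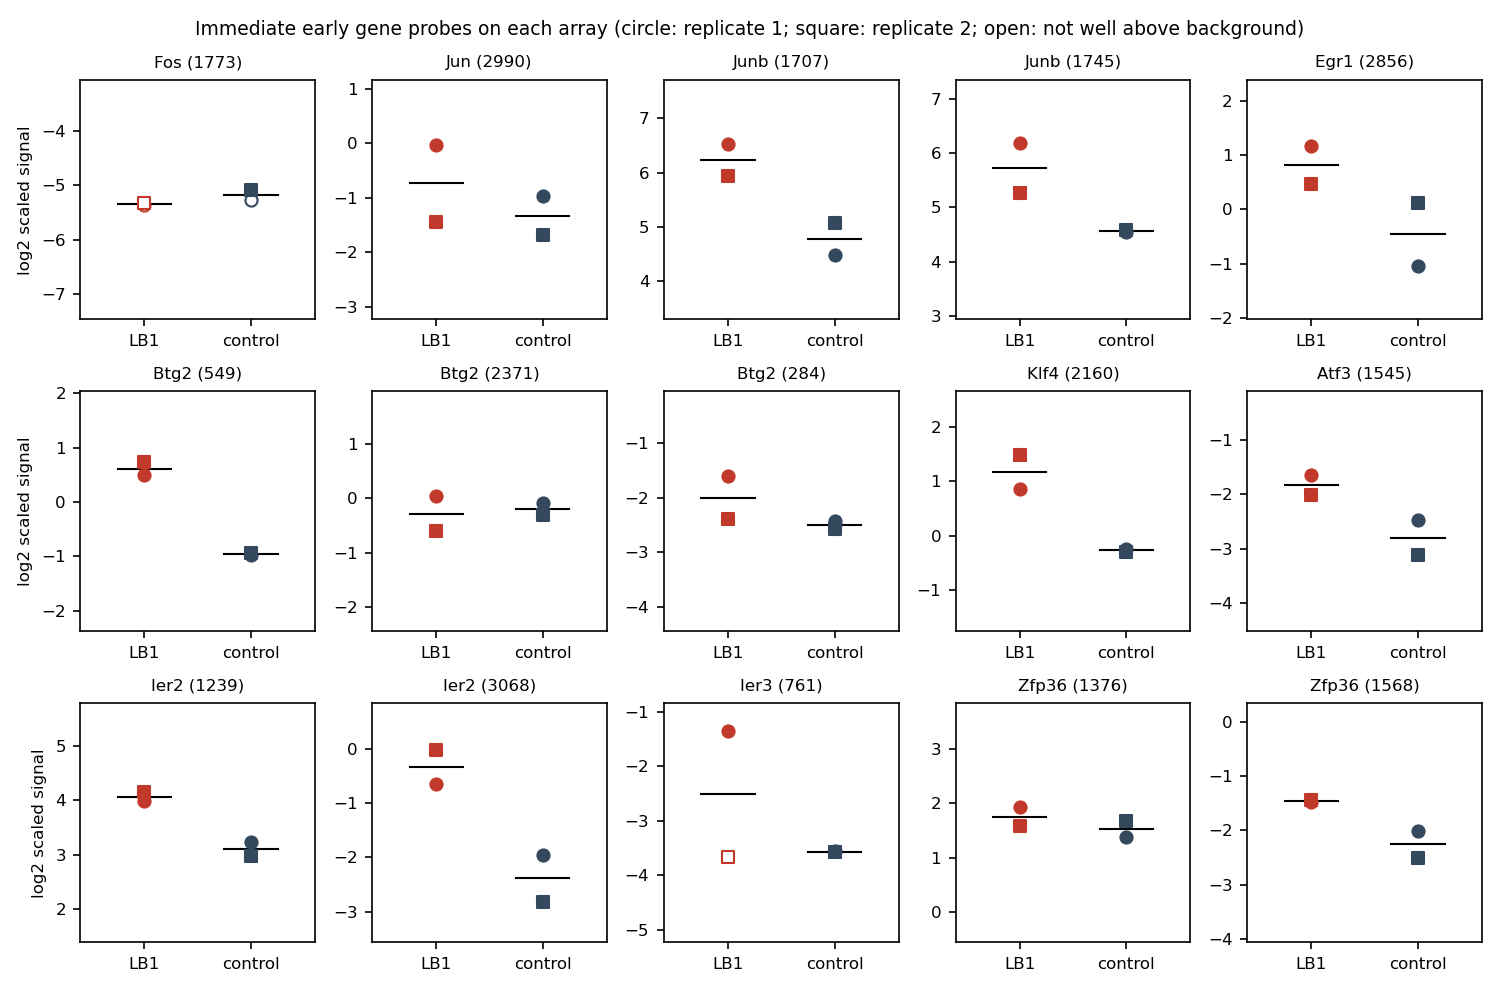
Level of each of the 15 immediate early gene probes on each array (log2 over the 75th percentile of that array), with LB1 left of control and the group mean as a line; the number after the gene is the probe's first base in its transcript, and an open symbol marks a probe that was well above background on fewer than 1 in 2 of its spots. Of the 14 tested probes 10 show LB1 values above both control values, called or not, whereas Jun, Ier3, Btg2 (2371) and Zfp36 (1376) overlap. The groups do not overlap at 76.1% of all tested probes. With spike-in scaling all tested member probes are lower in LB1 livers.

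Members that form the dimeric factor AP-1 were compared first. Junb, an AP-1 subunit of the basic leucine zipper class, is read by a pair of probes near the end of its transcript (mm9, chr8:87500881-87500940 and chr8:87500843-87500902, minus strand). They are not independent readings of the RNA, because they share these 22 bases, printed here from the array files to show the overlap:
Junb, shared by both probes: ttcgtgtctaaagtctatttta
The brighter Junb probe was at 6.52 and 5.94 in LB1 livers, against 4.48 and 5.07 in control livers. The other Junb probe was at 6.18 and 5.26 in LB1 livers, against 4.55 and 4.58 in control livers. Both LB1 values lay above both control values at each probe. The brighter probe rose by 1.45 (SE 0.33, adjusted p = 0.0337) and the other differed by 1.15 (SE 0.36, adjusted p = 0.0625). Within slides the brighter probe differed by 2.04 on slide 1 and 0.86 on slide 2. Its call was lost with quantile normalization (1.08, adjusted p = 0.0743) and with normexp background correction (0.88, adjusted p = 0.0576). The call was also lost with cyclic loess (0.99, adjusted p = 0.0795) and the array median (0.82, adjusted p = 0.114). With spike-in scaling the brighter Junb probe was at -0.91.

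Jun, the founding AP-1 subunit, is read by a single probe (mm9, chr4:94715864-94715923, minus strand) that was printed at 10 spots on each array. Its mean over the spots was -0.04 and -1.44 in LB1 livers, against -0.97 and -1.69 in control livers. LB1 replicate 1 stood above the other 3 arrays, and LB1 replicate 2 lay between the control arrays. Jun thus differed by 0.60 (SE 0.54, adjusted p = 0.415), and by 0.94 within slide 1 and 0.26 within slide 2. The SD between spots of the same array was 0.11 and 0.16 on the LB1 arrays and 0.09 and 0.09 on the control arrays. Between the arrays of a group the SD of Jun was larger, 0.99 among LB1 livers and 0.51 among control livers. These arrays differ in both mouse and slide, which cannot be told apart in that spread. Jun was lower on slide 2 in both groups, and with slide as a block its SE was 0.29 (adjusted p = 0.165).

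Fos, the partner of Jun in the classical AP-1 dimer, also had 10 spots per array for its probe (mm9, chr12:86817900-86817959, plus strand). No spot was well above background on either LB1 array, and 3 and 5 spots were on the control arrays. The processed signal averaged 3.64 and 2.05 on the LB1 arrays, against 10.9 and 13.1 on the control arrays, which on the scaled log2 axis was -5.37 and -5.32 against -5.28 and -5.09. The lowest scaled value well above background of any probe was -3.64 and -3.34 on the LB1 arrays and -5.34 and -5.40 on the control arrays. No difference is given for Fos, because the detection limit lay higher on the LB1 arrays.

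**Figure D2:**
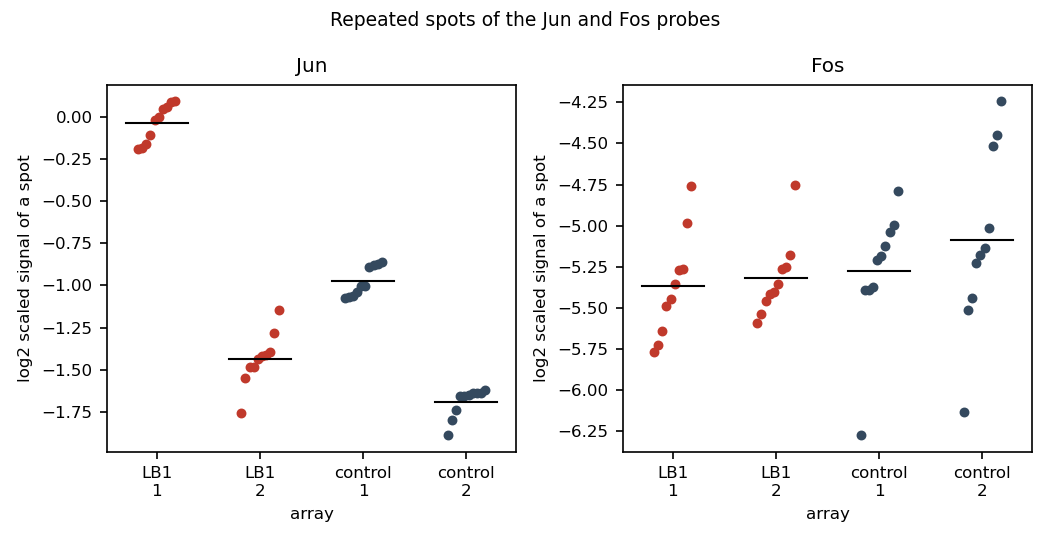
Scaled log2 signal of each of the 10 repeated spots of the Jun probe (left) and the Fos probe (right) on the LB1 and control arrays, with the mean as a line. The Jun spots of an array lie close together (SD 0.09 to 0.16) and the arrays lie apart, whereas the Fos spots sit near background on all 4 arrays (SD 0.24 to 0.57).

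Atf3, a stress-induced basic leucine zipper factor that pairs with Jun proteins, was at -1.64 and -2.02 in LB1 livers, against -2.48 and -3.12 in control livers (mm9, chr1:192994547-192994606, minus strand). The groups did not overlap, and the difference was 0.97 (SE 0.31, adjusted p = 0.0677). Within slides Atf3 differed by 0.84 and 1.1, and with slide as a block it was called higher (adjusted p = 0.0472).

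Of the zinc finger transcription factors among the members, Klf4 rose and Egr1 did not pass. Egr1, a growth factor-responsive factor that binds GC-rich sites, was at 1.16 and 0.46 in LB1 livers, against -1.03 and 0.12 in control livers (mm9, chr18:35024395-35024454, plus strand). Both LB1 values were above both control values, and the SD was 0.49 among LB1 livers and 0.82 among control livers. Egr1 differed by 1.27 (SE 0.47, adjusted p = 0.094), by 2.19 within slide 1 and by 0.34 within slide 2.

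Klf4, a factor of epithelial differentiation and quiescence, was at 0.86 and 1.48 in LB1 livers, against -0.25 and -0.29 in control livers (mm9, chr4:55540833-55540892, minus strand). It rose by 1.44 (SE 0.29, adjusted p = 0.0267), by 1.11 within slide 1 and 1.77 within slide 2. Before scaling, its processed signal was 267 and 225 on the LB1 arrays, against 347 and 339 on the control arrays, lower in LB1 livers, so the rise of Klf4 is relative to the other spots of its array. Of the scaling and background alternatives, quantile normalization, cyclic loess and normexp kept the Klf4 call at differences of 1.43, 1.47 and 1.02. The array median did not (0.80, adjusted p = 0.122), nor did spike-in scaling, where Klf4 was at -0.92 (adjusted p = 0.27).

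Among the members that restrain growth or respond to stress without binding DNA as classical factors, Btg2 depended on the probe. Btg2, an antiproliferative adaptor of the deadenylase complex, has 3 probes along its transcript, and their first 30 bases are shown because they mark the 3 positions that read differently:
Btg2 probe from base 284: aggttctggctatcgctgtatccgtatcaa
Btg2 probe from base 549: aagaactatgtgatggccgtctccagctag
Btg2 probe from base 2371: ttaaatcttcaattctttactgtccttgtt
They lie at chr1:135974181-135974240, chr1:135973916-135973975 and chr1:135972094-135972153 of mm9, on the minus strand, and hold 50%, 55% and 35% G and C over their 60 bases. The Btg2 probe from base 549 was at 0.49 and 0.74 in LB1 livers, against -0.97 and -0.93 in control livers. It rose by 1.57 (SE 0.22, adjusted p = 0.0212), and its within-slide values of 1.47 and 1.67 were close. The Btg2 probe from base 284 was at -1.60 and -2.39 in LB1 livers, against -2.42 and -2.57 in control livers, a difference of 0.50 (adjusted p = 0.271). The Btg2 probe from base 2371 was at 0.04 and -0.60 in LB1 livers, against -0.08 and -0.31 in control livers, a difference of -0.09 (adjusted p = 0.835). The LB1 values lay above the control values at the first and the middle probe and overlapped them at the last. With the mean over its 3 probes Btg2 differed by 0.66 (SE 0.23, adjusted p = 0.0869) and was no longer called.

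Ier2, a short nuclear protein of the immediate early response, was called at both of its probes. Their first 30 bases show that they read different stretches:
Ier2 probe from base 1239: ctgaactgaaccaatcaaatctgcgcagag
Ier2 probe from base 3068: ccccccgggaagtttaagatcattcttaac
The files place the first at chr8:87185211-87185245 and the other, designed on a longer cDNA, at chr8:87183623-87183681 of mm9, both on the minus strand. The place given for the first spans 35 bases, although the probe has 60. The Ier2 probe from base 1239 was at 3.99 and 4.16 in LB1 livers, against 3.24 and 2.97 in control livers. The Ier2 probe from base 3068 was at -0.64 and -0.03 in LB1 livers, against -1.95 and -2.82 in control livers. At both probes the LB1 values lay above the control values. The rises were 0.96 (SE 0.23, adjusted p = 0.036) and 2.05 (SE 0.39, adjusted p = 0.0258). With slide as a block the first missed the threshold (adjusted p = 0.0529), as it did with quantile normalization (0.74, adjusted p = 0.0712), while the other was called under both. The first also missed it with normexp (0.39, adjusted p = 0.0541), cyclic loess (0.74, adjusted p = 0.0676) and the array median (0.33, adjusted p = 0.556). The other was called under each of these. With spike-in scaling the first was at -1.40 and the other at -0.31, and neither was called.

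Ier3, an inhibitor of apoptosis induced by stress and NF-kB, was at -1.34 and -3.66 in LB1 livers, against -3.56 and -3.58 in control livers (mm9, chr17:35959528-35959587, plus strand). Only LB1 replicate 1 stood apart, and LB1 replicate 2 was not well above background. The difference of 1.07 (SE 0.76, adjusted p = 0.308) rests on that replicate, since it was 2.21 within slide 1 and -0.08 within slide 2.

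Zfp36, which encodes tristetraprolin, binds AU-rich elements of short-lived transcripts and speeds their decay. Its brighter probe was at 1.93 and 1.58 in LB1 livers, against 1.39 and 1.67 in control livers (mm9, chr7:29162132-29162191, minus strand). Its dimmer probe was at -1.48 and -1.44 in LB1 livers, against -2.01 and -2.50 in control livers (mm9, chr7:29161940-29161999, minus strand). The groups overlapped at the first and not at the second. Differences were 0.22 (SE 0.25, adjusted p = 0.508) and 0.80 (SE 0.26, adjusted p = 0.0693). The second probe holds 21.7% G and C, the lowest share of the 15 member probes.

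**Figure D3:**
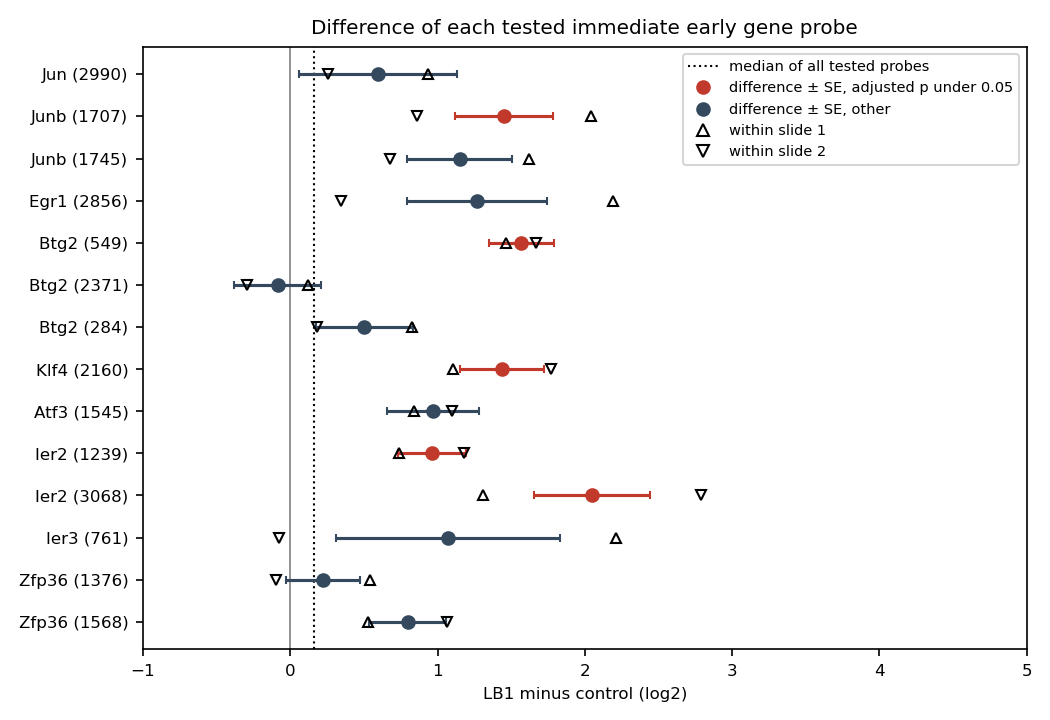
LB1 minus control (log2, after scaling to the 75th percentile) for each of the 14 tested immediate early gene probes, with its SE as a bar and the values within slide 1 and slide 2 as triangles; the dotted line is the median of all tested probes, 0.16. The 5 called probes, of Junb, Btg2, Klf4 and Ier2, lie between 0.96 and 2.05, and under spike-in scaling all 14 are below 0.

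The promoters of the members were read from the RefSeq table of build GRCm38.p6, which gives a window of fixed length around each gene start. Of the 10 genes 8 matched; Egr1 and Ier2 did not. The stretches shown here hold the letters TGACG, the core of the cyclic AMP response element bound by CREB and ATF proteins, in capitals on either strand (CGTCA where it lies on the opposite strand), because Atf3 and the AP-1 members bind related sites and Creb1 is among the genes compared below:
Btg2: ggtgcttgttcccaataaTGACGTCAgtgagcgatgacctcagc
Junb: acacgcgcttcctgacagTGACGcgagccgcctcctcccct
Klf4: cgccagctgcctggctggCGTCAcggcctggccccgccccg
Fos: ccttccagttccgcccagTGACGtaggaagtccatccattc
Atf3: aagctattaatagcattaCGTCAgc
These lie at chr1:134079296-134079339, chr8:84978832-84978872, chr4:55532685-55532725, chr12:85473806-85473846 and chr1:191183334-191183358 of GRCm38.p6, on the plus strand for Fos and the minus strand for the others. TGACG was present in 5 of the 8 matched promoters, and in 20.8% of all 32851 promoters of the table. The 8-letter palindrome TGACGTCA, which contains it on both strands, was present in Btg2 alone of the 8, from 166 to 159 bases before the start, and in 1.79% of all promoters. Fos holds a second TGACG 129 bases before its start.

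The CArG box, the site of serum response factor, was found in Zfp36 alone of the 8 matched windows and in 1.63% of all promoters. It is shown in capitals, 58 to 49 bases before the start (GRCm38.p6, chr7:28379259-28379304, minus strand):
Zfp36: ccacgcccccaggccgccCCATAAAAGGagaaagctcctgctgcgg
The pattern TGANTCA takes any base at N, so it covers the AP-1 site and other letters too. Searched on both strands, it was in 0 of the 8 windows and in 7.81% of all promoters. A match is a run of letters and not a shown binding site, and no array value bears on any of these positions. Sites beyond the window were not searched, nor were the promoters of Egr1 and Ier2. A member without a match here is therefore not shown to lack the site.

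A further list of 46 immediate early genes from the same pathway was described beside the members. Of 38 that were tested, 9 were higher and 2 lower in LB1 livers, against 20.6% and 10.4% of all named genes. Their median difference was 0.67 and that of all named genes 0.25. With the array median as scale the same genes gave 1 higher and 6 lower, and with spike-in scaling 0 and 20.

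The 6 called genes with the largest difference are described, and all 5 that rose were at -0.87 to -0.91 with spike-in scaling. Cebpb, a leucine zipper factor of the acute phase response, was at 6.57 and 6.61 in LB1 livers, against 5.0 and 5.18 in control livers, and rose by 1.49 (SE 0.21, adjusted p = 0.0215). Its second probe differed by 0.96 and did not pass (adjusted p = 0.108). Maff, a small Maf protein, was at 2.22 and 2.16 in LB1 livers, against 1.0 and 0.43 in control livers, and rose by 1.48 (SE 0.28, adjusted p = 0.0247). Klf2, a zinc finger factor related to Klf4 and known for its response to blood flow in endothelium, was at 7.48 and 8.23 in LB1 livers, against 6.63 and 6.18 in control livers. It rose by 1.45 (SE 0.35, adjusted p = 0.036), with its second probe at 0.78 (adjusted p = 0.079), and did not pass with quantile normalization or cyclic loess (0.83 and 0.77).

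Stress and growth factor genes of that list moved in both directions. Gadd45b, a stress sensor of the p38 and JNK pathways, was at 0.35 and 1.11 in LB1 livers, against -0.52 and -1.01 in control livers, and rose by 1.49 (SE 0.35, adjusted p = 0.0356), with its second probe at 1.58. Hbegf, a membrane-bound ligand of the EGF receptor, was at -1.21 and -1.46 in LB1 livers, against -2.94 and -2.65 in control livers, and rose by 1.46 (SE 0.24, adjusted p = 0.0228). Sgk1, a kinase induced by serum and glucocorticoid, was at 1.5 and 1.39 in LB1 livers, against 3.04 and 2.76 in control livers, and fell by 1.46 on the log2 scale (SE 0.23, adjusted p = 0.022). For each of these 3 genes the values of the groups did not overlap. Gadd45g, singled out after its values were seen, was at 5.0 and 8.07 in LB1 livers, against 3.44 and 2.72 in control livers, a difference of 3.45 that did not pass (SE 1.02, adjusted p = 0.0561).

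**Figure D4:**
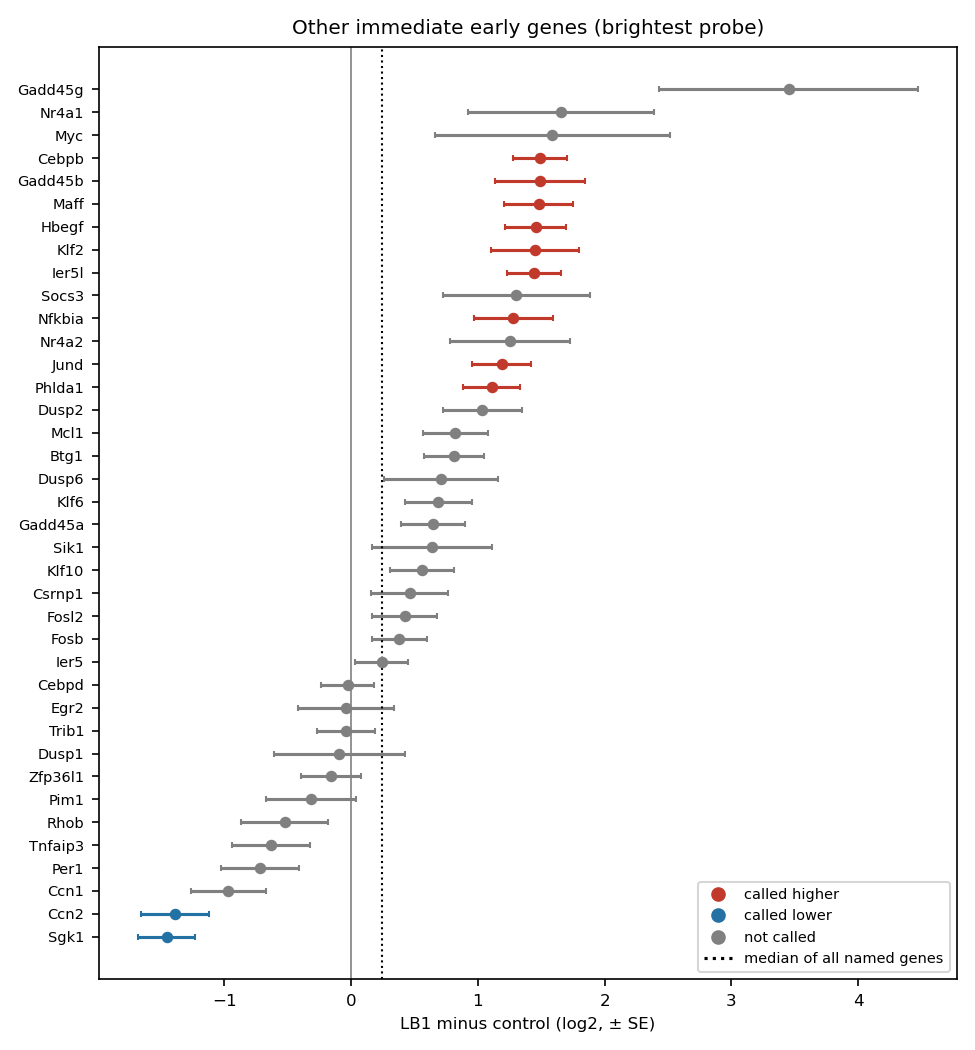
LB1 minus control (log2, scaled to the 75th percentile, with SE) at the brightest probe of the 38 tested genes of the further immediate early list, ordered by difference, with the median of all named genes, 0.25, as a dotted line. The 9 genes called higher lie above 1 and the 2 called lower, Ccn2 and Sgk1, below -1; with spike-in scaling none is called higher.

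Of the kinases and promoter-bound factors that act upstream of these genes, 28 of a list of 29 were tested, and 4 were higher and 2 lower, or 0 and 23 with spike-in scaling, with a median difference of -0.22 beside 0.25 for all named genes. Rps6ka1, a ribosomal S6 kinase that phosphorylates CREB and serum response factor, was at 3.37 and 4.20 in LB1 livers, against 1.71 and 1.41 in control livers. It rose by 2.22 (SE 0.35, adjusted p = 0.0219), with its second probe at 1.31 (adjusted p = 0.0464). Mrtfa, a coactivator of serum response factor, was at 2.12 and 3.0 in LB1 livers, against 1.13 and 1.27 in control livers, and rose by 1.36 (SE 0.35, adjusted p = 0.0412). With spike-in scaling Rps6ka1 was at -0.13 and Mrtfa at -1.0.

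Map2k1, the kinase MEK1, was at 0.09 and -0.38 in LB1 livers, against 1.74 and 2.0 in control livers, and fell by 2.01 on the log2 scale (SE 0.27, adjusted p = 0.0212). Srf, serum response factor itself, differed by -0.09 (adjusted p = 0.802).

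For Mapk8 and Creb1 of the upstream list the call as higher rests on 1 probe each. Mapk8, the kinase JNK1 that phosphorylates Jun, was at 0.70 and 1.86 in LB1 livers, against -1.14 and -1.58 in control livers, and rose by 2.64 (SE 0.44, adjusted p = 0.023). Its other tested probe, not well above background on the LB1 arrays, differed by -0.45 and did not pass (adjusted p = 0.157). Creb1, the factor that binds the cyclic AMP response element, was at 0.42 and 0.69 in LB1 livers, against -0.20 and -0.41 in control livers, and rose by 0.86 (SE 0.23, adjusted p = 0.0462, or 0.0676 with slide as a block). Neither of its other tested probes was well above background on the LB1 arrays. Of these, 1 was called lower (-1.14, SE 0.23, adjusted p = 0.0275) and the other differed by 0.88 (adjusted p = 0.0574). The calls of Creb1 thus lie in opposite directions.

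Heat shock chaperones, which tissue handling and stress are also known to induce, were set beside the members. Of 12 tested, 0 were higher and 1 was lower by limma, with a median difference of 0.05; there were 0 higher and 10 lower with spike-in scaling, and 3 higher and 4 lower with normexp. Dnaja1, a cochaperone of Hsp70, was at 3.43 and 2.94 in LB1 livers, against 4.88 and 4.93 in control livers, and fell by 1.72 on the log2 scale (SE 0.26, adjusted p = 0.0217), and both other Dnaja1 probes were called lower too. Of the inducible Hsp70 genes, Hspa1a was not well above background on the LB1 arrays and Hspa1b differed by -0.20 (adjusted p = 0.748). On LB1 replicate 2 Hspa1b was at -3.85, under the lowest value well above background of that array, -3.34. Its difference is thus limited by background.

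Marker lists of other cells were set beside the members. These are bulk samples, in which fewer cells of a type and less RNA per cell cannot be told apart. For mesothelium, the cell layer on the liver surface, 8 of 9 tested markers of a list of 12 were higher and 0 lower, also with spike-in scaling, and the summed level of the list (linear, relative to the array's 75th percentile) was 15.2 and 51.7 in LB1 livers, against 1.68 and 0.29 in control livers. Bnc1 was not well above background on any array. With a filter on all 4 arrays, 3 mesothelium markers were tested and 3 were higher. The other tested markers passed the main filter only through the LB1 arrays, where they were high. Their direction was thus partly set by the filter. Without LB1 replicate 2 the count was 2 of 9, without control replicate 1 it was 7 of 9, and without control replicate 2 it was 0 of 9 by limma, where 9 were higher at an unadjusted p under 0.05.

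For neutrophils and monocytes 1 of 5 tested markers was higher, or 0 higher and 2 lower with spike-in scaling, with sums of 5.78 and 15.8 in LB1 livers, against 3.14 and 3.56 in control livers. For T, B and NK cells 5 of 10 were higher, or 0 higher and 4 lower with spike-in scaling, with sums of 4.33 and 4.72 in LB1 livers, against 2.76 and 3.25 in control livers. Elane of the first list and Klrb1c of the second were not well above background on any array.

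For Kupffer cells 1 of 12 was higher and 2 lower, or 0 and 5 with the array median and 0 and 11 with spike-in scaling, with sums of 86.6 and 90.2 in LB1 livers, against 80.7 and 86.7 in control livers. For endothelium 1 of 12 was higher and 2 lower, or 0 and 5 with the array median and 0 and 11 with spike-in scaling, with sums of 68.7 and 53.5 in LB1 livers, against 62.1 and 64.8 in control livers. For stellate cells and fibroblasts 4 of 12 were higher and 0 lower, or 1 and 4 with the array median and 0 and 8 with spike-in scaling, with sums of 120 and 125 in LB1 livers, against 102 and 93.9 in control livers. Of 11 hepatocyte markers 5 were higher and 2 lower, or 0 and 2 with quantile normalization and 0 and 5 with spike-in scaling. Of those called higher, 4 were saturated on both control arrays, and Alb, Fgb and Ahsg on both LB1 arrays too, so no difference is read for them. Over all named genes 20.6% were called higher and 10.4% lower. The part of any of these cells in the immediate early gene results was not tested.

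All 14 tested probes were below 0 when arrays were scaled to the 6 spike-ins within range, where the median of all tested probes was -2.2 and 4 member probes were called lower. Relative to the median of all tested probes, 13 of the 14 were higher in the main setting. The array median and spike-in scaling give the same count by construction, since each shifts all probes of an array by the same amount. The count was 14 with quantile normalization and 11 with normexp. It was 9 of 14 without LB1 replicate 1, and 7 of 15 with no filter on dim probes, where the median of all probes was 0.98 and that of the members 0.97. The probes called with each of quantile normalization, cyclic loess and the 75th percentile were those of Btg2 (549), Klf4 and Ier2 (3068).

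**Figure D5:**
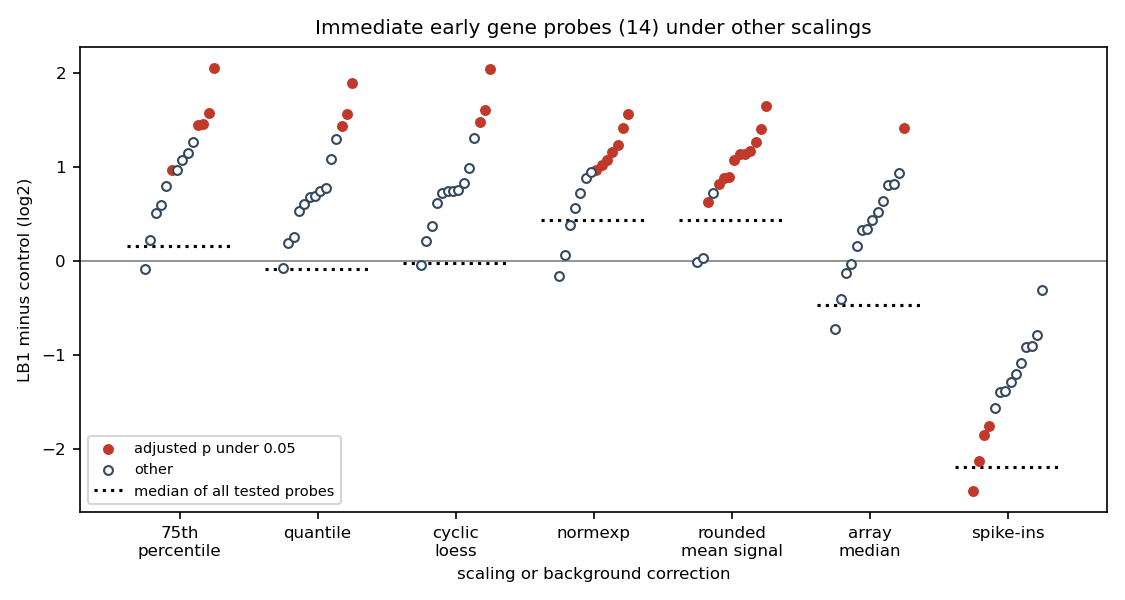
LB1 minus control (log2) of the 14 tested immediate early gene probes under 7 choices of scaling or background correction, in ascending order within each, with the median of all tested probes as a dotted line. The points move with that line: the median member probe lies at 1.02 with the 75th percentile, 0.38 with the array median and -1.34 with the spike-ins.

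No member call was kept when a control array was left out. Without control replicate 1 the adjusted p of the 5 called probes was 0.0629 to 0.168, and without control replicate 2 it was 0.134 to 0.267, at differences of 1.1 to 2.48 and 0.83 to 1.75. The spread in both fits comes from the LB1 pair, with the single control taken to vary as that pair does. Without LB1 replicate 1 Junb was lost (1.16, adjusted p = 0.0555), and without LB1 replicate 2 Ier2 was lost (0.88, adjusted p = 0.0622) and Ier3 was called (2.23, adjusted p = 0.0341).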

How the data were processed

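Spot intensity on a linear scale came from the deposited scanner files. Per the file headers these were made with Feature Extraction 10.5.1.1 on a G2505C scanner, with background removed and detrended within each array and nothing done between arrays. The deposited series table holds the mean spot intensity rounded to whole numbers. Outlier-marked spots were left out, log2 of the processed signal minus the array's 75th percentile over 43379 non-control spots was taken, and spots of a probe were averaged (41174 probes). Tested probes were those well above background, on at least 1 in 2 of their spots, in both mice of LB1, of control or of both. The difference was fitted in R 4.3.3 by limma 3.58.1 (lmFit, eBayes), adjusted by Benjamini-Hochberg over 22957 probes, and the fit was tested on simulated data. A gene is read at its brightest probe over the 4 arrays.

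Genes were named through RefSeq accessions (24844 probes), current (6045) or older symbols (1810). Probe positions are those of the files, on mm9. Members are named in full; of the further immediate early and upstream lists the 6 called genes with the largest difference are named, and of the heat shock list up to 4. A gene that this rule selects is not reported here. The members and lists were chosen with earlier results of these data known. The number of arrays limits the precision. Same-numbered arrays share a slide, and their deviations from the group means correlated at 0.151 across probes. Alternatives are given in the closing section.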

Additional observations from a re-analysis of the deposited data

How the results depend on the processing

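The number of calls changed with scaling, background correction and single arrays, and the cause was not tested. Counts over all tested probes are 4406 higher and 3027 lower in LB1 livers, with 5 member probes and 4 member genes higher and 0 lower. Normexp gave 11343 and 4640, with 7 member probes and 4 genes higher. Quantile normalization gave 2514 higher and 3979 lower, and cyclic loess 2901 and 3985, each with 3 member probes and 2 genes higher. The array median gave 1650 and 7116, with 1 member probe and 0 genes higher by limma. Spike-in scaling gave 67 and 16052, with 0 member probes and 0 genes higher and 4 probes and 2 genes lower. The series table gave 10685 and 3758, with 11 member probes and 7 genes higher. No filter gave 17541 and 3123, with more dim probes tested. A filter on all 4 arrays gave 5230 higher and 2954 lower of 18145 probes (28.8% and 16.3%), with 8 member probes higher. The methods' t-test gave 0 and 0 after Benjamini-Hochberg adjustment, with 0 member probes and 0 genes higher, 3919 and 3093 at an unadjusted p under 0.05 (3 member probes higher), and 2228 and 1881 with the 2-fold minimum (2 member probes and 2 genes higher). The mean over a gene's probes gave 3 genes higher.

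Leaving out 1 array at a time gave 0 to 6009 higher and 1 to 5014 lower over all tested probes, and 0 to 6 member probes and 0 to 4 member genes higher. Without control replicate 1 there were 125 higher and 14 lower (4131 and 2603 at an unadjusted p under 0.05, 7 member probes higher), and without control replicate 2 there were 0 and 1 (3448 and 2365, 5 member probes higher). With slide as a replicate block there were 4189 higher and 2767 lower, with 5 member probes and 4 genes higher. The block lost the brighter Ier2 probe (adjusted p = 0.0529) and Creb1 (0.0676) and added Atf3 (0.0472).

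Signs turned as follows. With spike-in scaling the differences were -1.76 for Jun, -0.91 and -1.21 for Junb, -1.09 for Egr1, -0.79 and -1.85 for Btg2 (549 and 284), -0.92 for Klf4, -1.39 for Atf3, -1.40 and -0.31 for Ier2, -1.29 for Ier3, -2.13 and -1.56 for Zfp36, -0.87 for Cebpb, -0.87 for Gadd45b, -0.88 for Maff, -0.90 for Hbegf, -0.91 for Klf2, -0.13 for Rps6ka1, -1.0 for Mrtfa and -1.50 for Creb1. With the array median they were -0.039 for Jun, -0.13 for Btg2 (284) and -0.41 for Zfp36 (1376). Btg2 (2371) was at 0.060 with normexp and 0.029 with the series table, and Zfp36 (1376) at -0.16 and -0.017. Leaving out 1 array at a time gave -0.10 to 1.30 for Jun, -0.087 to 2.23 for Ier3 and -0.41 to 0.23 for Btg2 (2371), with the lowest values of all 3 without LB1 replicate 1. Btg2 (2371) was at 0.025 without control replicate 1 and 0.23 without LB1 replicate 2. Dimmer LB1 arrays limit what can be measured near background, as for Fos.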
